A study of Mus musculus with 9 samples.

Results

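The genes for the proteins of the cytosolic ribosome were examined in MLP29 cells, a mouse liver progenitor line. Members were chosen by name: a probe set had to name 1 gene alone, its symbol had to be of the Rpl, Rplp, Rps or Rpsa form, and kinases of the Rps6k family were left out. This gave 45 genes on 96 probe sets, out of 12393 genes read by a probe set naming them alone. Of the 45, 24 encode large subunit proteins and 21 small subunit proteins. Each gene was represented by its brightest probe set, and no measured difference between conditions entered the choice. A further 28 ribosomal protein genes, among them Rpl5, Rpl3, Rpl10 and Rps12, were read only by probe sets that name several genes, and they are given apart from the members. Of the members, 14 are also read by 31 probe sets that name other genes, often pseudogenes, beside them, and these were used to set the chosen probe set against another reading.

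Total RNA was read on 9 arrays of the type Affymetrix Mouse430A_2, and each of 3 experiments gave 1 array per condition. The conditions were untreated cells, cells given 20 ng/ml of HGF/SF1, a growth factor that scatters epithelial cells, and cells given 10 µg/ml of the antibody clone BMB5, which blocks the function of α5β1 integrin, a fibronectin receptor. All cells, the untreated ones included, had been kept in 0.1% serum for at least 16 h, and treatment lasted 24 h. The study asked how the transcriptome responds when the receptor is blocked, with HGF/SF1 as a comparison. The paper names an IgG antibody among its control additions, but calls the control cells of the arrays untreated. No array is labelled as a control antibody, so the antibody effect cannot be told apart from an effect of adding any antibody. All arrays come from a single cell line. As whole cultures were measured, fewer cells with a message and less of it per cell cannot be told apart. Both treatments are compared with the same 3 untreated arrays.

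The values are log2 signals, so a difference of 1 is a doubling of signal, and they compare arrays for 1 probe set but not probe sets with each other. Array medians over 22626 probe sets lay between 5.91 and 6.08. Of 11 measured progenitor and biliary markers, Krt8, Krt18, Krt19, Cd24a and Cdh1 averaged 13.79, 14.01, 13.23, 12.62 and 10.75. In contrast, Epcam averaged 4.34 and Afp 4.14, below the median probe set, and the lowest mean of the 11 was 4.02. Of 8 hepatocyte markers Hnf4a averaged 9.28 and the others at most 5.15, with Alb at 4.01, and of 6 leukocyte and macrophage markers Cd14 averaged 11.73 and the others at most 5.35, with Ptprc at 3.25. The 5 endothelial markers averaged at most 5.33 and the 7 fibroblast and stellate markers at most 5.58. None of the measured markers of these other cell types passed an unadjusted p of 0.05 in limma for antibody against untreated cells.

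The cytosolic ribosome has a small subunit, which decodes the message, and a large subunit, which joins amino acids, and nearly all of its proteins are present in a single copy per particle. In mammals most of the messages for these proteins begin with a 5′ terminal oligopyrimidine (TOP) tract, a C followed by a run of pyrimidines, through which mTOR signalling and the RNA-binding protein Larp1 set how well they are translated. Amounts of these proteins are therefore often changed through translation of the messages rather than through their number, and an array reads the number alone.

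TOP tracts were looked for in the RefSeq promoter windows of GRCm38.p6, which were found for 39 of the 45 genes (47 windows). A tract was a run of at least 6 C or T on the sense strand that begins with C, its first base within 10 bases of the annotated start. It was present in 23 of 47 windows (48.9%), against 19.2% of the 32851 windows of all genes. Rpl19 and Rps19 each have a window with a tract and another without, so whether a tract is found depends on the annotated start. A window without one does not show that the message lacks it. The following 30-base stretches run from 10 bases before the annotated start, 5′ to 3′ on the strand of the gene, with the tract in capitals. They show a long and a short tract, the tracts of the genes with the lowest change and with the second highest change after the antibody, and Rplp0 and Rpl37, in which no such run was found.
Rpl27a (chr7:109519185-109519214, plus strand): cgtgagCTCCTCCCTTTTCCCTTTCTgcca
Rpl12 (chr2:32961702-32961731, plus strand): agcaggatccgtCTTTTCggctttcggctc
Rps6 (chr4:86857348-86857377, minus strand): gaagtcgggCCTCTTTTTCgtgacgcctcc
Rps27 (chr3:90213629-90213658, minus strand): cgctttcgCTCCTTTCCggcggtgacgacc
Rplp0 (chr5:115559457-115559486, plus strand): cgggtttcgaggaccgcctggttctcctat
Rpl37 (chr15:5116603-5116632, plus strand): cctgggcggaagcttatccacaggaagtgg
The tracts printed are 20 bases long in Rpl27a, 6 in Rpl12, 10 in Rps6 and 9 in Rps27. The letters CCGGAA or TTCCGG, the core bound by ETS-family factors, were found on either strand of 26 of the 47 windows of 300 bases (55.3%), against 14.9% of all windows. The letters TATAAA were found between 40 and 11 bases before the start in 0 of the 47 windows and in 2.08% of all windows. A match of letters is a description and does not show that a factor binds there.

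The signals of these genes were nearly level across the 9 arrays. Their median log2 value per array lay between 13.3 and 13.5, and 32 of the 45 members averaged above 13. Among all genes read by a probe set naming them alone, 61 reached that level. The median standard deviation within a condition was 0.058 for the members against 0.202 for all genes. The range over all 9 arrays was under 0.3 in 31 members and in 8.95% of all genes. The steadiest were Rps3, a protein at the channel where the message enters, with values from 13.34 to 13.41 over the 9 arrays and a within-condition standard deviation of 0.016, and Rpl27 of the large subunit, at 0.018. Those 32 members sit near the top of the scale, where the highest value of any probe set was 14.29, and the 29 other genes above 13 had a median absolute antibody difference of 0.066, against 0.030 for these members. The part of brightness in the small differences was not tested.

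**Figure D1:**
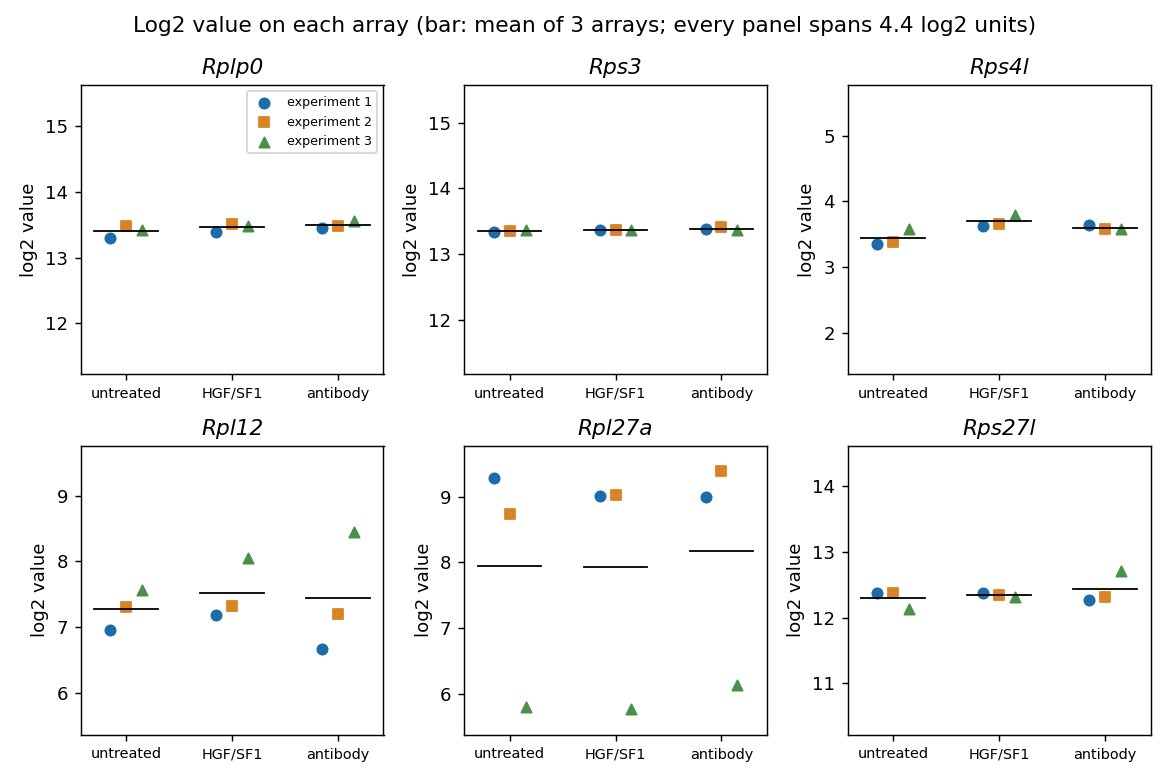
Log2 value (vertical axis, the same span in every panel) of 6 ribosomal protein genes on each array, by condition, with symbols for the 3 experiments and a bar for the mean of 3 arrays. Rplp0 and Rps3 are level, Rps4l lies between 3.35 and 3.80, and on the probe sets naming these genes alone the arrays of experiment 3 stand low for Rpl27a and high for Rpl12.

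After the antibody, no ribosomal protein gene changed by the test used. At an unadjusted p under 0.05 (limma), 4.68% of all genes were higher with the antibody and 7.92% were lower, whereas 0 of the 45 members were higher and 0 lower. The smallest unadjusted p among them was 0.130, the smallest p adjusted over all probe sets was 0.590, and 5 genes on the whole array passed the adjusted threshold. The median log2 difference was 0.030 for the members and -0.0018 for all genes, and the median absolute difference was 0.044 against 0.141. With each array centred on its median the member median was 0.087, while the median of all probe sets moved to 0.059. Differences ran from -0.17 in Rps6 to 0.30 in Rpl37.

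These values also bound the change in the deposited signal, after a normalization between arrays that is not given. Of the 61 genes averaging above 13 on a probe set naming them alone, 32 are members. How far normalization would level a shift that they share was not tested. The 95% interval of the antibody difference lay within 0.25 log2 of 0 in 25 members, within 0.5 in 40 and within 1 in 43 of 45, so a doubling or halving of signal lies outside the interval for all but 2 genes, Rpl12 and Rpl27a, as read by the probe sets naming them alone. The sign was the same in all 3 experiments in 11 of the 45 members, against 37.3% of all genes. By experiment, the median difference was 0.0060, -0.00063 and 0.060. Large subunit genes had a median of 0.035 and small subunit genes 0.027. Members with a tract found near an annotated start had a median of 0.032 over 23 genes. Those with a window and no tract found had 0.023 over 16 genes. The ranges, from -0.17 to 0.25 and from -0.040 to 0.30, overlap, and the split depends on the annotated starts.

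**Figure D2:**
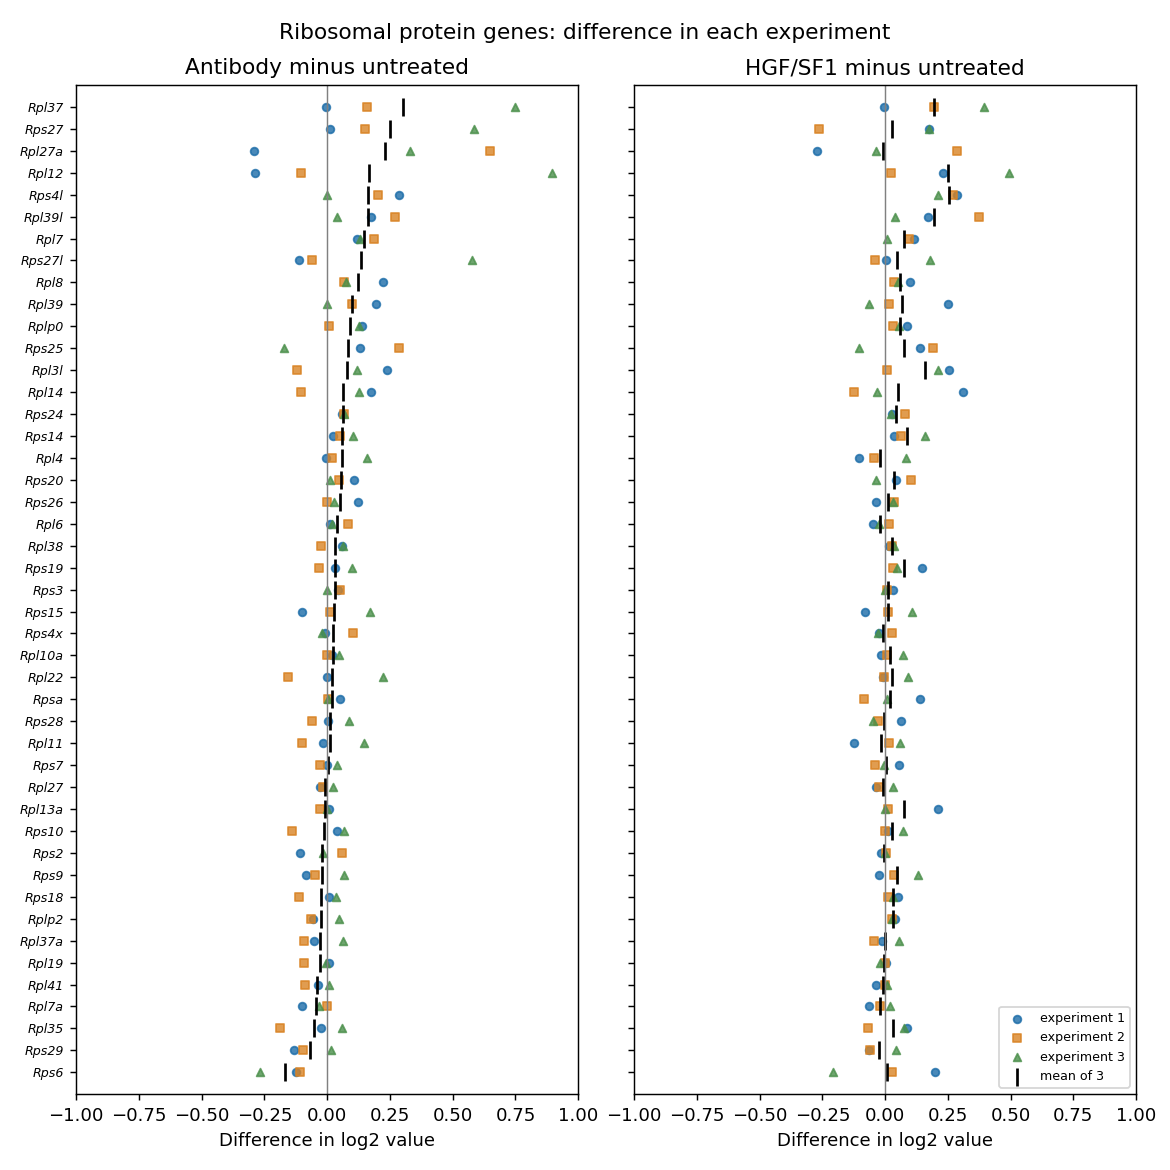
Log2 difference from untreated cells (horizontal axes) in each of 3 experiments for the 45 ribosomal protein genes, ordered by the mean antibody difference, with the antibody on the left and HGF/SF1 on the right. Most symbols lie close to 0, and the widest spreads after the antibody belong to Rpl12, Rpl27a, Rpl37, Rps27 and Rps27l.

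After HGF/SF1, the signals of these genes likewise stayed near their untreated values. Over all genes, 0.533% were higher and 0.307% lower at an unadjusted p under 0.05, and among the members 1 was higher (Rps4l) and 0 were lower. No gene on the array passed the adjusted threshold for HGF/SF1, with 192 probe sets at an unadjusted p under 0.05. The median difference was 0.028 for the members and 0.0080 for all genes, or 0.059 for the members and 0.033 for all probe sets with centred arrays. The range was from -0.025 in Rps29 to 0.26 in Rps4l, and the next lowest were Rpl4 and Rpl7a, each at -0.021. The 95% interval lay within 0.25 of 0 in 25 members and within 0.5 in 40.

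The antibody and HGF/SF1 arrays were also set against each other. Over all genes, 5.19% were higher and 8.96% lower with the antibody, and 0 of the 45 members were higher and 0 lower. The median difference was 0.0011 for the members, and the range was from -0.17 in Rps6 to 0.24 in Rpl27a. The 95% interval lay within 0.25 of 0 in 24 members and within 0.5 in 41.

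The P stalk of the large subunit, which recruits translation factors, was read through Rplp0 and Rplp2, its acidic proteins, and Rpl12, at its base. Rplp0 was at 13.30, 13.48 and 13.42 in untreated cells, 13.39, 13.51 and 13.48 with HGF/SF1 and 13.44, 13.48 and 13.55 with the antibody, in the order of the experiments. The groups overlap, and the antibody difference was 0.090 (SE 0.091), with a 95% interval from -0.12 to 0.30. The antibody difference of Rplp2 was -0.025 (SE 0.085).

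The probe set naming Rpl12 alone was less steady, with a standard deviation within conditions of 0.62. It was at 6.95, 7.30 and 7.56 in untreated cells, 7.18, 7.32 and 8.05 with HGF/SF1 and 6.67, 7.20 and 8.45 with the antibody. Experiment 3 was the highest in each condition, and the antibody array was below the untreated one in experiments 1 and 2 and above it in experiment 3. The antibody difference of 0.17 (SE 0.43) had a 95% interval from -0.82 to 1.16. A pair of shared probe sets for Rpl12 and pseudogenes stayed between 13.16 and 13.37 on all arrays. They differed by 0.078 (SE 0.080) and 0.11 (SE 0.087). The spread was not seen there, and its cause was not tested.

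Rpl11, which with Rpl5 and the 5S RNA forms a particle that can bind Mdm2, differed by 0.0094 (SE 0.10) after the antibody. Around the tunnel through which the new chain leaves, Rpl4, Rpl19, Rpl35 and Rpl39 differed by 0.058, -0.029, -0.051 and 0.097, with SEs from 0.082 to 0.11. The genes on the X chromosome among the members, Rps4x and Rpl39, differed by 0.025 and 0.097. Fau, whose product is a ubiquitin-like protein fused to a small subunit protein, lies outside the naming rule and differed by -0.030 (SE 0.087).

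Rps6, the small subunit protein that S6 kinases phosphorylate, had the lowest antibody difference on the chosen probe sets, and its probe set averaged 7.81. It was at 7.70, 7.82 and 8.09 in untreated cells, 7.90, 7.84 and 7.88 with HGF/SF1 and 7.58, 7.71 and 7.82 with the antibody. The antibody array was below the untreated one in each experiment, although the groups overlap, and below every HGF/SF1 array. The difference from untreated cells was -0.17 (SE 0.12, adjusted p = 0.682, limma), with an interval from -0.45 to 0.11. Its 9 shared probe sets, which also name the pseudogene Rps6-ps4, differed by -0.017 to 0.33 with none at an unadjusted p under 0.05. The 4 of them averaging above 13 differed by 0.036, -0.017, 0.071 and 0.094, so the place of Rps6 at the low end rests on the chosen probe set.

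Rpl37 and Rps27, zinc-finger proteins of the large and the small subunit, had the highest antibody differences on the chosen probe sets. Rpl37 was at 10.45, 10.65 and 10.02 in untreated cells, 10.45, 10.84 and 10.41 with HGF/SF1 and 10.45, 10.81 and 10.77 with the antibody. Its untreated array of experiment 3 was the lowest of the 9, and the difference of 0.30 (SE 0.19) had an adjusted p of 0.625 in limma. The shared probe sets of Rpl37 that averaged 13.42 and 13.73 differed by 0.085 (SE 0.15) and 0.0049 (SE 0.11), and another averaging 7.56 by 0.41 (SE 0.30). Rps27 was at 7.29, 7.34 and 7.34 in untreated cells, 7.46, 7.08 and 7.52 with HGF/SF1 and 7.30, 7.49 and 7.92 with the antibody. Its difference of 0.25 (SE 0.18, adjusted p = 0.674, limma) came mostly from experiment 3, where the arrays differed by 0.58. The untreated and antibody arrays were at 7.29 and 7.30 in experiment 1 and at 7.34 and 7.49 in experiment 2. The shared probe set of Rps27, averaging 13.60, differed by 0.018 (SE 0.094).

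The paralogs with restricted use were dim, apart from Rps27l, a p53 target. Rpl3l, the paralog of heart and skeletal muscle, averaged 3.93, Rpl39l, the testis paralog, 3.36, and Rps4l 3.58, all below the lower quartile of probe sets at 3.97. Rps4l was at 3.35, 3.39 and 3.59 in untreated cells, 3.63, 3.66 and 3.80 with HGF/SF1 and 3.63, 3.59 and 3.59 with the antibody. All HGF/SF1 arrays lie above all untreated arrays, by 0.26 on average (SE 0.10, adjusted p = 1, limma), at a level where little signal is present. The call was lost in 8 of the alternative fits, with differences from 0.20 to 0.28 in them. Rps27l was at 12.38, 12.38 and 12.13 in untreated cells, 12.38, 12.34 and 12.31 with HGF/SF1 and 12.26, 12.32 and 12.71 with the antibody, a difference of 0.13 (SE 0.14) that turned to -0.087 without experiment 3. All 3 of its probe sets had differences from 0.12 to 0.13.

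The remaining paralogs, outside the naming rule, were Rpl22l1, which differed by 0.24 (SE 0.092, adjusted p = 0.367, limma) after the antibody, and Rpl7l1, which differed by -0.74 (SE 0.27, adjusted p = 0.328, limma). Both passed the unadjusted threshold, but of 17 alternative fits Rpl22l1 lost it in 8, among them those without any one of the 3 experiments, and Rpl7l1 in 6, among them those without experiment 2 and without experiment 3. Rpl22l1 was at 12.44, 12.40 and 12.40 in untreated cells and 12.58, 12.78 and 12.60 with the antibody. Rpl7l1 was at 8.89, 9.10 and 9.15 in untreated cells and 8.89, 8.11 and 7.91 with the antibody, so experiment 1 showed no difference. The members they resemble, Rpl22 and Rpl7, differed by 0.021 (SE 0.14) and 0.15 (SE 0.089).

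Groups that do not overlap were few. The antibody arrays lay apart from the untreated ones in Rpl39l, Rpl7 and Rpl8 (3 of 45, against 15.01% of all genes), and the HGF/SF1 arrays in Rpl39l and Rps4l (2 of 45, against 3.94%). Rpl8, a large subunit protein close to the peptidyl transferase centre, was at 13.40, 13.51 and 13.49 in untreated cells and 13.62, 13.58 and 13.57 with the antibody, a difference of 0.12 (SE 0.082, adjusted p = 0.653, limma). The antibody and HGF/SF1 arrays lay apart in Rpl4, Rpl8 and Rps6 (3 of 45, against 14.5%).

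The experiment divided some members more than the condition. In experiment 1, all 3 arrays lay on one side of the other 6 in 10 of the 45 members, against 8.21% of all genes, lower in Rpl10a, Rpl12, Rpl22, Rpl38, Rps20, Rps24 and Rps4x and higher in Rpl14, Rpl41 and Rps25. In experiments 2 and 3 this held for 3 members each, against 3.52% and 8.16% of all genes. Rpl27a, with the longest tract printed above, was at 9.29, 8.73 and 5.80 in untreated cells, 9.01, 9.02 and 5.77 with HGF/SF1 and 8.99, 9.38 and 6.13 with the antibody. Experiment 3 was lower by more than 2 log2 units in every condition, and no other gene of the 12393 did this in any experiment. Within experiments its antibody difference was -0.29, 0.65 and 0.33, and its fitted difference of 0.23 (SE 1.27) carries the spread between experiments. Another probe set naming it alone averaged 3.77. A shared probe set, which names Rpl27a and pseudogenes, averaged 13.44, stayed between 13.35 and 13.52 and differed by 0.066 (SE 0.083), with untreated arrays at 13.42, 13.44 and 13.40, so the low level in experiment 3 was not seen there.

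Among probe sets naming a member alone, several of a gene mostly gave the same picture. The 66 of 96 probe sets with a mean above 11 held 0 at an unadjusted p under 0.05 for the antibody, with differences from -0.070 to 0.21, while the 30 dimmer ones ran from -0.84 to 0.85. The exceptions were dim probe sets of genes that also have a bright one. For Rps9 a dim probe set was at 5.80, 5.54 and 6.21 in untreated cells and 5.48, 4.59 and 4.96 with the antibody, a difference of -0.84 (SE 0.30, adjusted p = 0.323, limma), whereas its brightest differed by -0.022 (SE 0.084). For Rpl35 a probe set averaging 3.99 differed by -0.36 after the antibody and -0.42 after HGF/SF1, whereas its 5 bright probe sets differed by -0.051 to 0.096 after the antibody. For Rps24 a probe set averaging 7.51 differed by 0.85 (SE 0.50, adjusted p = 0.578, limma), and its brightest by 0.063. Of the 31 shared probe sets of members 0 were higher and 0 lower at an unadjusted p under 0.05 in each of the 3 comparisons (limma), and the 21 averaging above 11 had antibody differences from -0.024 to 0.18, with a median of 0.078.

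**Figure D3:**
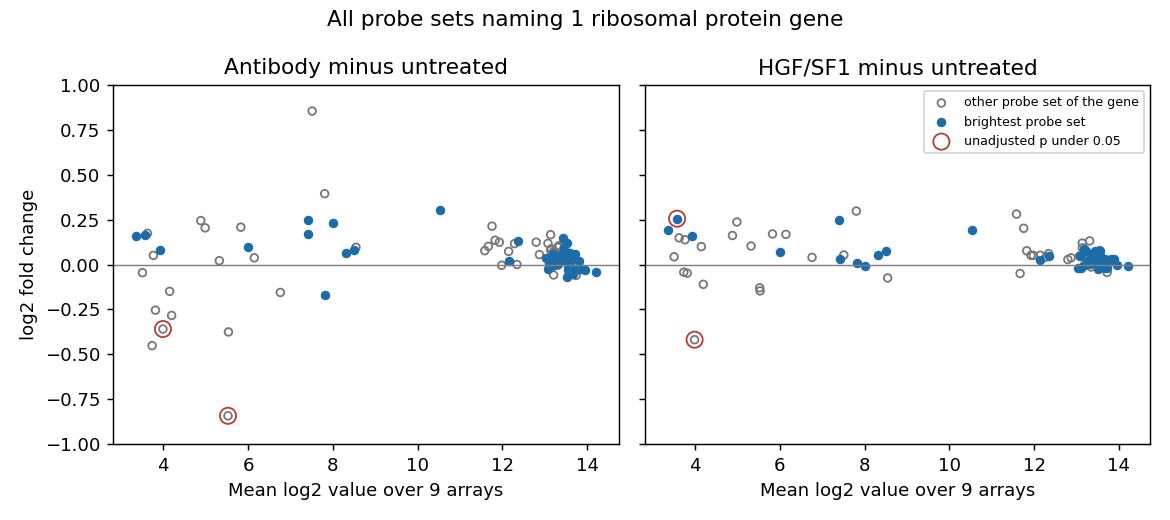
Log2 fold change (vertical axis) of the 96 probe sets that name 1 ribosomal protein gene against their mean log2 value over 9 arrays (horizontal axis), with red rings at an unadjusted p under 0.05. Points above a mean of 11 stay close to 0 in both comparisons, and the ringed probe sets are all dimmer.

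The 28 genes on shared probe sets behaved much the same. On their 71 probe sets the median antibody difference was 0.040 and the median HGF/SF1 difference 0.018, and 62 and 71 of 71 lay within 0.25 of 0. For the antibody, 0 were higher and 2 lower at an unadjusted p under 0.05. One names Rpl13 together with Tax1bp3 and differed by -0.52 (SE 0.12, adjusted p = 0.195, limma), and the other names Rpl3 with pseudogenes and differed by -1.38 (SE 0.56, adjusted p = 0.381, limma). Another 3 probe sets of Rpl13, averaging 13.20 to 13.75, differed by 0.020, 0.095 and 0.087, and another of Rpl3, averaging 13.63, by 0.035.

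The genes that build and regulate ribosomes were described by lists chosen for their function, and no gene in any of them passed the adjusted threshold in the antibody comparison. The counts below stand beside the 4.68% of all genes that were higher and the 7.92% that were lower, and 17 alternative fits were made for each. Of 75 measured assembly factors 2 (2.67%) were higher and 12 (16.0%) lower at an unadjusted p under 0.05, with a median of -0.12. Rrp12, needed to export the subunits, was at 7.31, 7.08 and 7.07 in untreated cells and 6.70, 6.50 and 6.18 with the antibody, and fell by 0.69 (SE 0.15, adjusted p = 0.180, limma). Tsr1 (-0.62), which acts in late small subunit maturation, Nifk (-0.49), a nucleolar RNA-binding protein, and Pwp2 (-0.71), of the early small subunit precursor, fell too. With a term for experiment in the fit, 6 were higher and 16 lower, beside 7.81% and 10.65% of all genes. The counts were 6 and 14 without experiment 1, 5 and 14 without antibody array 1, 0 and 3 without experiment 2 and 0 and 3 without experiment 3. The shares of all genes in those fits were 6.98% and 11.65%, 7.71% and 11.01%, 1.67% and 2.22%, and 2.49% and 4.32%. The lower count was also 4 without antibody array 2, 6 without antibody array 3, 7 without untreated array 1 and 5 without untreated array 3. These were 5.33%, 8%, 9.33% and 6.67% of the list, beside 4.54%, 6%, 6.52% and 6.64% of all genes. Without untreated array 2 the lower count was 11 (14.67%), beside 5.17% of all genes. With arrays centred on their medians it was 10 (13.33%), beside 6.1%. Leaving out HGF/SF1 array 1, 2 or 3 gave 11, 10 and 11, beside 8.7%, 7.13% and 7.52% of all genes. Rrp12 and Tsr1 passed in all 17 fits, Nifk in all but 1 and Pwp2 in all but 2.

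Of 74 measured mitochondrial ribosomal protein genes, which encode a separate ribosome, 1 (1.35%) was higher and 8 (10.8%) lower, with a median of -0.12. Mrps12 was at 9.44, 9.51 and 9.44 in untreated cells and 9.05, 8.41 and 8.82 with the antibody, and fell by 0.70 (SE 0.15, adjusted p = 0.180, limma). Mrpl36 (-0.35), Mrpl46 (-0.30) and Mrpl18 (-0.60) also fell. Mrps12 passed in all 17 alternative fits, and Mrpl36 and Mrpl18 failed in 6 each and Mrpl46 in 8. The counts were 3 and 10 with a term for experiment, 0 and 17 without antibody array 1 and 2 and 13 without experiment 1. They were 0 and 1 without experiment 2 and 0 and 4 without experiment 3, with the shares of all genes as given above. With arrays centred on their medians they were 1 and 2, beside 6.03% and 6.10% of all genes. The lower count was between 1 and 8 without any other single array. It was 1 (1.35%) without untreated array 2 and 8 (10.8%) without untreated array 3, beside 5.17% and 6.64% of all genes. The cytosolic members, with counts of 0 and 0, were set beside these lists without a test of the difference.

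Of 17 genes for RNA polymerase I and the transcription of ribosomal DNA, 2 were higher and 4 lower, with a median of 0.050. Taf1d and Taf1c, both subunits of the SL1 promoter factor, went opposite ways, by 1.13 (SE 0.26, adjusted p = 0.196, limma) and -1.13 (SE 0.31, adjusted p = 0.219, limma), although 1 of the 5 probe sets of Taf1d was at -0.37. Without experiment 2 the counts of this list were 1 (5.88%) and 2 (11.76%), beside 1.67% and 2.22% of all genes. Without experiment 3 they were 1 and 1 (5.88% each), beside 2.49% and 4.32% of all genes. Polr1e, a polymerase subunit, and Ttf1, the termination factor, fell by 0.57 and 0.46. Of the 16 other genes known for TOP messages 1 was higher and 1 lower, with a median of 0.056. Those were Hnrnpa1, an RNA-binding protein, at 0.76 (SE 0.21, adjusted p = 0.225, limma), and Eef1d, an elongation factor subunit with 1 of its 3 probe sets higher, at -0.20 (SE 0.086). The call of Eef1d was lost in 15 of the 17 alternative fits, and that of Hnrnpa1 without experiment 2 and without experiment 3.

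Of 22 genes around mTOR, S6 kinase and Larp1, 2 were higher and 2 lower, with a median of 0.030. Eif4ebp1 and Eif4ebp2, which hold back cap-dependent translation when mTOR is inactive, went opposite ways, by 0.51 (SE 0.15) and -0.62 (SE 0.22), although 1 of the 5 probe sets of Eif4ebp2 was higher, by 0.015. Ddit4, an mTOR inhibitor induced by stress, was at 7.25, 5.99 and 8.14 in untreated cells and 8.95, 8.24 and 10.5 with the antibody, and rose by 2.09 (SE 0.77, adjusted p = 0.339, limma). Tsc2, of the complex that restrains mTOR, fell by 0.37. Of the 17 alternative fits, the call was lost in 13 for Tsc2, 6 for Eif4ebp2, 5 for Ddit4 and 1 for Eif4ebp1. Of 12 genes of nucleolar stress and p53, 2 were higher, the p53 targets Bbc3 (1.20, SE 0.39) and Gadd45a (1.69, SE 0.70), and Ei24 was lower (-0.27, SE 0.12). The call was lost in 3 of the 17 fits for Bbc3, 9 for Gadd45a and 10 for Ei24. This list held 0 and 0 without experiment 2, 0 and 1 (8.33%) without experiment 3, and 6 (50%) and 1 (8.33%) without experiment 1. The shares of all genes in those fits were 1.67% and 2.22%, 2.49% and 4.32%, and 6.98% and 11.65%. None of the genes in these lists outside the members passed an unadjusted p of 0.05 for HGF/SF1. The smallest p there belonged to Nop58, a box C/D ribonucleoprotein, at -0.55 (SE 0.28), and Tbl3 at 0.19 (SE 0.13) among assembly factors, and to Mrpl32 at 0.20 (SE 0.12) and Mrpl1 at 0.44 (SE 0.29) among mitochondrial ribosomal proteins. Among the polymerase I genes they were Polr1e at 0.24 (SE 0.14) and Taf1b at -0.55 (SE 0.35), among other TOP genes Vim at 0.092 (SE 0.10) and Hnrnpa1 at -0.18 (SE 0.21). Rictor at 0.21 (SE 0.16) and Rps6ka3 at -0.19 (SE 0.16) led the mTOR list, and Zmat3 at 0.26 (SE 0.23) and Phlda3 at 0.19 (SE 0.17) the p53 list.

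**Figure D4:**
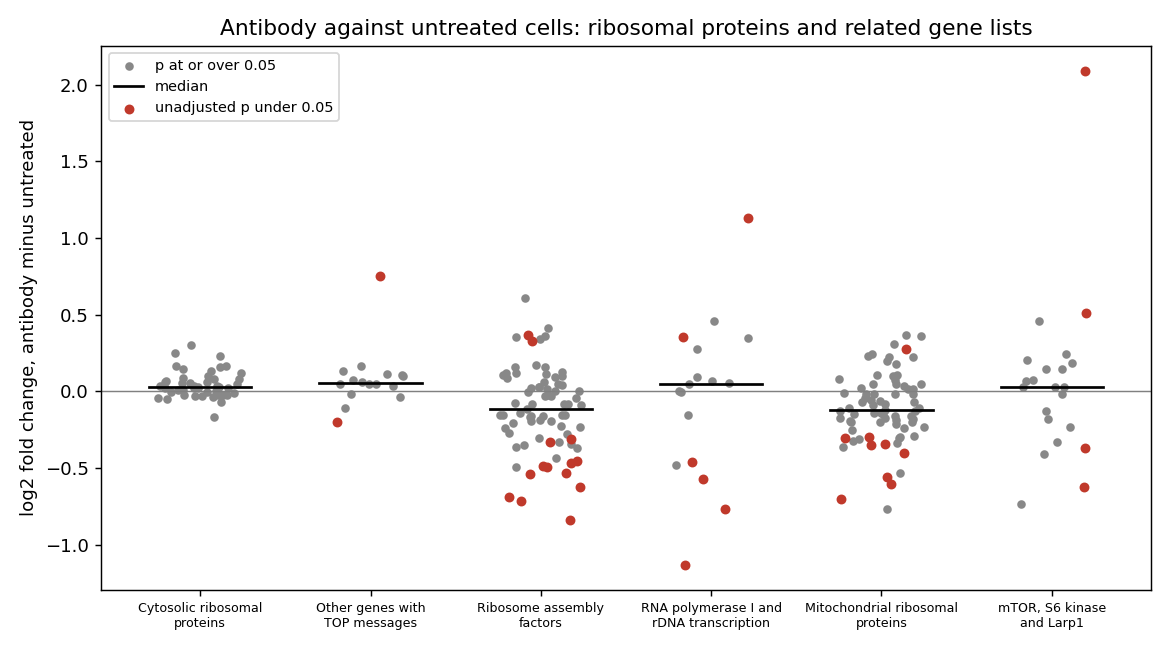
Log2 fold change after the antibody against untreated cells (vertical axis) for each gene of the cytosolic ribosomal proteins and of 5 related lists, with genes at an unadjusted p under 0.05 in red and the median of each list as a bar. The 45 ribosomal proteins lie between -0.17 and 0.30 with none in red, whereas the other lists hold genes in red.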

How the data were processed

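RNA of 9 cultures of MLP29 cells was hybridised to Affymetrix Mouse430A_2 arrays. The authors analysed all arrays jointly with affylmGUI, correcting background by rma, and deposited log2 signals, 1 per probe set. The normalization between arrays and the summary per probe set are not given in the sources used here. The number of arrays limits the precision.

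Of 22690 probe sets, 64 controls were left out, and 20380 of the remaining 22626 name 1 gene. Conditions came from the sample labels. limma 3.58.1 (R 4.3.3) was fitted to all 9 arrays with a mean per condition, two-sided, with Benjamini-Hochberg adjustment over all probe sets. The 95% intervals used the moderated t distribution. The fit was tested on simulated arrays with planted differences and no effect of experiment, so that test does not cover the pairing. Experiments, numbered in accession order, share a numeric code in the sample titles, which do not say what it marks. Deviations from the condition means correlated from 0.0958 to 0.591 within experiments and from -0.484 to 0.0308 between them. Whether the arrays of a condition came from separate cultures is taken from the paper, which calls the experiments independent.

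Named members were those past an unadjusted p of 0.05, the 3 largest differences each way in each comparison, and the P stalk, 5S, ubiquitin fusion, paralog and X-linked groups. In each pathway list up to 4 genes past that threshold for the antibody with the smallest p were named, and 2 for HGF/SF1. Rpl7, Rpl8, Rpl19, Rpl22, Rpl27, Rps3, Rps9, Rps24 and the genes listed by experiment fall outside this rule and were named after their values were seen. Members, lists and tests were chosen with earlier results of these data known. Promoter letters were counted in Python 3.11.15. Alternatives were other normalization, probe set choice, moderation, experiment as a fixed or random block, and leaving out each array or experiment. Proteins were not printed, and the scanner intensity files were not used here.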

Additional observations from a re-analysis of the deposited data

How the results depend on the processing

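In every alternative run, 0 members passed the adjusted threshold (limma), and no called difference changed sign. For the antibody against untreated cells, centring arrays on their medians gave 1 member higher (Rps4l) and a median of 0.087. Averaging all probe sets of a gene gave 1 higher (Rps24), and leaving out probe sets with the suffix _x_at or _s_at gave 1 of 40 lower (Rps9). In either direction, these fits called 2644 of 22626 probe sets, 1542 of 12393 genes and 2298 of 19645 probe sets. For HGF/SF1, centring gave a median of 0.059. Quantile normalization gave 0 higher, the fit of probe sets above the median brightness 0 of 41, and moderation with a trend and robust estimation 2 (Rpl39l and Rps4l). In either direction, quantile normalization called 192 of 22626 probe sets, the brightness fit 14 of 11313 and the trend fit 260 of 22626. For the antibody against HGF/SF1, centring gave a median of 0.026 and leaving out the suffixed probe sets gave 1 lower (Rps9). The latter fit called 2575 of 19645 probe sets in either direction. With experiment as a replicate block the counts were 0 higher and 0 lower for the antibody, 1 and 0 for HGF/SF1 and 0 and 0 between them. The pairing thus changed no call of a member. Of 22626 probe sets, that fit called 4114, 411 and 4490 in those comparisons.

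Leaving out 1 array or 1 experiment gave 0 to 1 members higher for the antibody (1, Rps4l, without untreated array 3). It gave 0 to 1 for HGF/SF1, where the median ran from 0.013 to 0.044. Without untreated array 3, the antibody comparison called 2381 of 22626 probe sets. For HGF/SF1 these fits called 123 to 366 of 22626. Brightness limits the reading of Rpl3l, Rpl39l and Rps4l, and the spread between experiments that of the probe sets naming Rpl27a and Rpl12 alone. The causes were not tested.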
